A study of Homo sapiens with 24 samples.

Results

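The Sprouty and SPRED genes are a small set of feedback inhibitors of growth factor signalling, and 6 of them (SPRY1, SPRY2, SPRY4, SPRED1, SPRED2 and SPRED3) were followed here in A549 cells, an established human line from a lung adenocarcinoma. The members were chosen by name: every transcript row whose identifier belongs to 1 of the 6 genes in GENCODE 29 was taken, and the counts were summed per gene. This gave 24 transcripts of the 119207 in the table, and 6 genes of 33127. Cells received 100 nM dexamethasone (dex), a synthetic glucocorticoid that activates the glucocorticoid receptor (GR), or an equal volume of its vehicle ethanol (EtOH, 0.02% of the medium), for 1, 3, 5, 7, 9 or 11 h. Each of these 12 groups had 2 libraries of poly-A RNA, 24 in all, and the labels number them as biological replicates. The study's methods state triplicates, and the treatment text of the labels gives 1 h for every library. The duration label, which runs from 1 to 11 h, was used. All libraries came from 1 cell line, grown in medium with serum.

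Receptor tyrosine kinases pass a growth factor signal through RAS, RAF and MEK to the kinases ERK1 and ERK2, and ERK in turn switches on genes that restrain the pathway. Sprouty proteins are among these brakes and act between the receptor and RAF. SPRED proteins carry a related C-terminal domain, bind the RAS GTPase-activating protein neurofibromin and bring it to the membrane, where it turns RAS off. In the developing lung, Sprouty genes are known to limit the branching that fibroblast growth factor drives.

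Library totals ranged from 6708864 to 13748598 counts, with a median of 10109393.5. Of the 7 measured genes of a list of known GR targets, 6 were called higher with dex at 1 h and all 7 from 3 h on. Called means an adjusted p of at most 0.1 in edgeR's quasi-likelihood test. Of all genes tested, 0.626% were called higher at 1 h and at most 14.3%, at 7 h. The list was chosen with earlier results of these data known, so it is no independent check of the labels. The 5 epithelial markers summed to between 3890 and 6270 CPM in the EtOH libraries and to between 4570 and 12400 CPM in the dex libraries. CPM is the usual scaling of a count by its library's total, here after TMM, which corrects totals for composition. Leukocyte markers summed to at most 6.64 CPM, with CD3E at 0 in every library, endothelial markers to at most 1.06 CPM, and fibroblast markers to between 6.61 and 24.9 CPM. The epithelial sum moved with dex, and its part in the results was not tested. In bulk RNA, fewer cells of a type and less RNA per cell cannot be told apart.

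The members responded to dex in different directions. SPRY1 rose at all 6 time points, SPRY2 rose at 1 h, SPRED1 fell at 4 of the 6 time points, and SPRY4 fell at 3 h. SPRED2 passed the test at none of the 6 time points, and SPRED3 had too few counts to be tested. Of the 5 members tested, 2 were called at 1 h, where 1.04% of all 15337 genes tested were. At 3 h 3 members were called, against 14.2% of all genes. At 5 and 7 h 2 were called, against 25.0% and 28.3%. At 9 h 1 member was called, against 19.7%, and at 11 h 2, against 9.09%. From 3 h on, dex moved a large share of all genes, so a call at those times is common. The median log2 fold change of all genes tested lay between -0.03 and 0.01 at every time point.

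**Figure D1:**
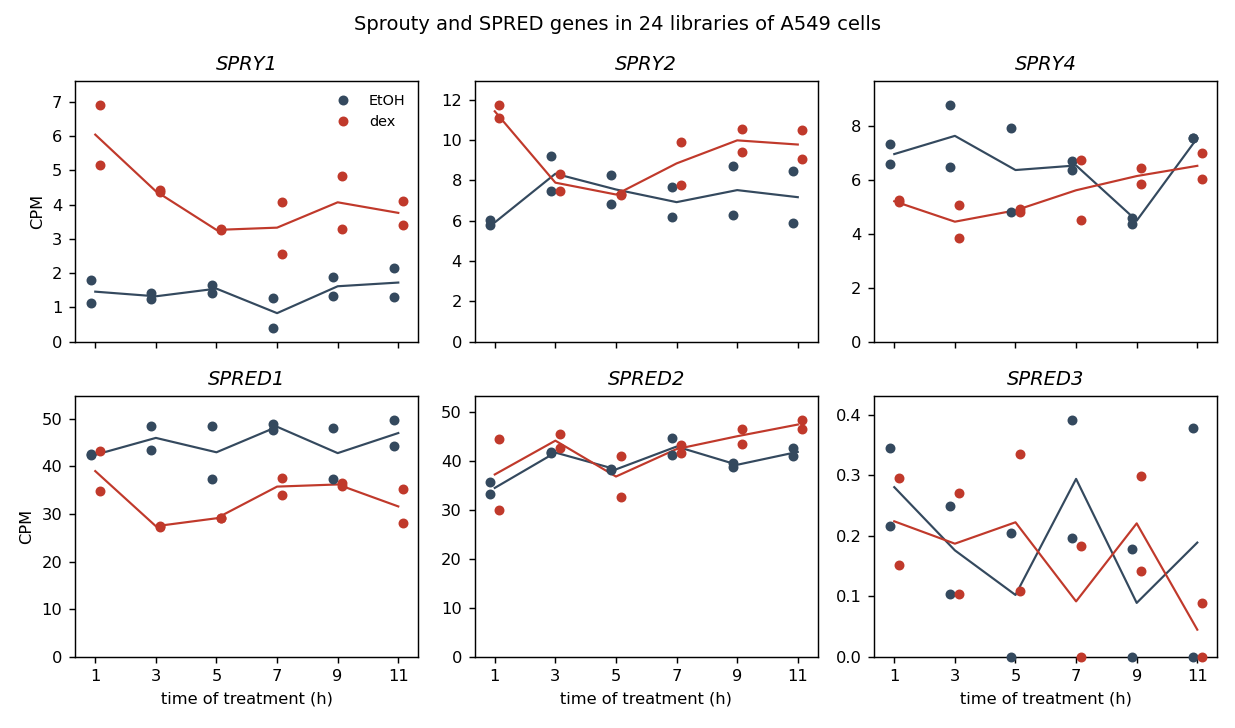
CPM (vertical axes, from 0) of the 6 genes against hours of treatment, with 1 point for each of the 24 libraries (red, dex; dark blue, EtOH) and lines through the means of 2 libraries. The SPRY1 points of the groups are apart at all 6 time points, with EtOH between 0.393 and 2.14 CPM and dex between 2.57 and 6.91 CPM, whereas the SPRED2 groups overlap at 1, 5 and 7 h.

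SPRY1 showed the largest change among the members. It encodes Sprouty 1, an antagonist of fibroblast growth factor and other receptor signals that is best known for limiting the growth of the kidney's ureteric buds. SPRY1 (ENSG00000164056.10) lies on the plus strand of chromosome 4, from 123396795 to 123403760 in GRCh38. At 1 h the dex libraries held 6.91 and 5.17 CPM and the EtOH libraries 1.12 and 1.80 CPM. At 3 h they held 4.36 and 4.42 CPM against 1.24 and 1.41 CPM. At 5 h they held 3.28 and 3.25 CPM against 1.43 and 1.67 CPM. Every dex library was thus above every EtOH library of its time point. The same held at 7 h, with 2.57 and 4.09 CPM against 0.393 and 1.27 CPM. At 9 h the values were 4.85 and 3.29 CPM against 1.34 and 1.90 CPM. At 11 h they were 4.11 and 3.41 CPM against 2.14 and 1.31 CPM. The lowest of the 12 dex libraries was above the highest of the 12 EtOH libraries, whatever the time point. Groups that did not overlap at any of the 6 time points, with dex higher, were found for 2.44% of all genes tested.

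The fold change of SPRY1 was 4.12 at 1 h (log2 2.04 ± 0.32 SE, adjusted p = 0.00116, edgeR). It was 3.27 at 3 h (log2 1.71 ± 0.33, adjusted p = 0.000363) and 2.09 at 5 h (log2 1.06 ± 0.35, adjusted p = 0.0231). At 7 h it was 3.83 (log2 1.94 ± 0.43, adjusted p = 0.000662), at 9 h 2.43 (log2 1.28 ± 0.35, adjusted p = 0.0238) and at 11 h 2.20 (log2 1.14 ± 0.36, adjusted p = 0.0924). A call for higher levels with dex at all 6 time points was made for 72 genes, or 0.469% of those tested. Over the 6 time points in 1 fit of 24 libraries, the mean effect of dex was log2 1.53 ± 0.15, a 2.88-fold rise (adjusted p = 2.29e-09, edgeR), a contrast called in either direction for 35.9% of genes. The effect was largest at 1 h, but its change between time points did not pass the test (adjusted p = 0.529), a test that 15.4% of genes passed. SPRY1 counts were low, with 28 to 70 counts in a dex library and 4 to 25 in an EtOH library. Leaving out EtOH replicate 1 at 5 h gave an adjusted p of 0.122, leaving out dex replicate 2 at 7 h gave 0.115, and leaving out dex replicate 1 at 9 h gave 0.167. At 11 h the call was lost without EtOH replicate 1 (adjusted p = 0.128) and without EtOH replicate 2 (adjusted p = 0.736). DESeq2, the tool of the study, gave an adjusted p of 0.223 at 5 h and of 0.372 at 11 h, and the direction was the same in all of these fits. The size at 7 h rested on the EtOH libraries, with log2 1.33 without EtOH replicate 1, which held 4 SPRY1 counts, and 2.99 without EtOH replicate 2.

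Of the 5 SPRY1 transcripts in the table, 2 passed the filter on low counts. ENST00000339241.1, which starts at 123396801, held 44.1% of the gene's counts, and ENST00000394339.2, which starts downstream at 123399510, held 42.9%. The former was called higher at 3, 7 and 9 h (log2 1.84 ± 0.45, 1.69 ± 0.65 and 2.21 ± 0.56) and the latter at 1, 5 and 7 h (log2 2.87 ± 0.50, 1.299 ± 0.48 and 2.79 ± 0.57). Of the 56380 transcripts tested, 0.431% were called at 1 h, 7.12% at 3 h, 14.7% at 5 h, 16.1% at 7 h, 10.4% at 9 h and 5.12% at 11 h. The transcripts share most of their exons, and how the deposited counts divide reads that match several transcripts is not given in the sources used here, so the split between them is less certain than their sum.

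The sequence before the first SPRY1 start site was examined because GR binds DNA directly at palindromes of 2 hexamers. RefSeq promoter windows on GRCh38.p14, from 250 bases before to 50 bases after a start site, were given for all 6 members, 11 windows of 35116 in all. The letters searched on both strands were the GR palindrome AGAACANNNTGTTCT, its hexamer AGAACA, AP-1 (TGACTCA or TGAGTCA), CRE (TGACGTCA), ETS (CCGGAA) and an E-box (CACGTG). A palindrome match always holds hexamer matches. The palindrome was in 0 of the 11 windows and in 0.00285% of all windows. The hexamer was in 2 of 11, both of SPRY2, against 14.8% of all windows. AP-1 letters were in 2 (SPRED2 and SPRED3, 4.95% of all), ETS letters in 2 (SPRY1 and SPRY2, 17.2% of all), and CRE and E-box letters in 0 (1.85% and 7.26% of all). The 250 bases before the upstream SPRY1 start site, shown because SPRY1 rose throughout, held none of these letters and overlapped no annotated exon. They are printed 5′ to 3′ on the strand of the gene:
SPRY1 chr4:123396545-123396794 (+): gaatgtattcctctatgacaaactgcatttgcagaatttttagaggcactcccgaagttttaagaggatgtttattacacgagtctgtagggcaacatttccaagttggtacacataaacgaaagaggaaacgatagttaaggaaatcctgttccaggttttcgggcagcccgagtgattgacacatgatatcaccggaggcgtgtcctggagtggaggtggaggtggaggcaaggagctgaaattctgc
No match says only that these letters are not in this window. The ETS match of SPRY1 was in the window of its second start site, 67 bases before that site, within annotated exons.

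SPRY2 was the other member that rose, and it did so at 1 h. It encodes Sprouty 2, which binds the ubiquitin ligase CBL and the adaptor GRB2. SPRY2 (ENSG00000136158.11) lies on the minus strand of chromosome 13, from 80335976 to 80340951. At 1 h the dex libraries held 11.75 and 11.1 CPM and the EtOH libraries 5.79 and 6.04 CPM, and the groups did not overlap, as for 17.8% of all genes in this direction. The fold change was 1.93 (log2 0.95 ± 0.21 SE, adjusted p = 0.0307, edgeR). At 3 h the values were 7.48 and 8.30 CPM with dex and 9.19 and 7.47 CPM with EtOH. At 5 h they were 7.32 and 7.28 CPM against 6.85 and 8.24 CPM. The groups overlapped at both of these times, and the log2 fold changes were -0.07 ± 0.20 and -0.06 ± 0.22. At 7 h the values were 9.90 and 7.78 CPM against 6.19 and 7.65 CPM, at 9 h 10.55 and 9.42 CPM against 8.74 and 6.30 CPM, and at 11 h 10.49 and 9.06 CPM against 8.44 and 5.89 CPM. The dex libraries were again the higher ones at these 3 times, at log2 0.37 ± 0.20, 0.39 ± 0.22 and 0.46 ± 0.24, without passing the test (adjusted p = 0.199, 0.275 and 0.389, edgeR). Dex libraries above EtOH libraries were found for 28.9%, 26.4% and 22.3% of all genes at 7, 9 and 11 h.

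A call at 1 h and at no later time was rare, with 10 genes or 0.0652% of those tested. The difference in the dex effect of SPRY2 between time points had an adjusted p of 0.111 in edgeR, so the response at 1 h is not shown to differ from that at later times. It was between 0.067 and 0.085 when 1 library was left out among dex replicates 1 and 2 of 11 h, EtOH replicates 1 and 2 of 9 h and EtOH replicate 1 of 11 h, and 0.0853 with no filter. The mean effect over the 6 time points was log2 0.34 ± 0.08 (adjusted p = 0.00227), with 16.9% of all genes called higher in that contrast. The 1 h call was lost with DESeq2 (adjusted p = 0.156), without EtOH replicate 1 (0.359) and without EtOH replicate 2 (0.379), at log2 fold changes of 0.95, 0.92 and 0.98. It was gained at 7 h without EtOH replicate 2 (adjusted p = 0.0863), at 9 h without EtOH replicate 1 (0.0327) and at 11 h without dex replicate 2 (0.0899). The 2 SPRY2 transcripts, ENST00000377104.3 with 55.5% and ENST00000377102.1 with 44.5% of the counts, had log2 fold changes of 0.96 ± 0.24 and 0.93 ± 0.27 at 1 h, and neither was called at any time (at 1 h, adjusted p = 0.103 and 0.292).

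SPRY2 had 3 of the 11 promoter windows, and they are shown because they held both hexamer matches found among the members. The 250 bases before each start site overlapped no annotated exon, and capitals mark the GR hexamer, read here as TGTTCT, or the ETS letters. Each is printed 5′ to 3′ on the minus strand, from the most upstream start site to the most downstream:
SPRY2, upstream start, chr13:80341127-80341376 (-): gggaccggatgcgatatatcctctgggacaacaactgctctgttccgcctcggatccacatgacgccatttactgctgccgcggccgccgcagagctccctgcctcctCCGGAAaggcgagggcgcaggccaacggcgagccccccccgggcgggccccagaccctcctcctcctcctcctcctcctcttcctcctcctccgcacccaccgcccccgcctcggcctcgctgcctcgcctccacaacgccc
SPRY2, middle start, chr13:80340109-80340358 (-): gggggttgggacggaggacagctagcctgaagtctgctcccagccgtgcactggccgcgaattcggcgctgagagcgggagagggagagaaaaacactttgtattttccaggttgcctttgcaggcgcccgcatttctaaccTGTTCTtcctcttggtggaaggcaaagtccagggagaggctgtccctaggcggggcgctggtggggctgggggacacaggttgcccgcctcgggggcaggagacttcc
SPRY2, downstream start, chr13:80339660-80339909 (-): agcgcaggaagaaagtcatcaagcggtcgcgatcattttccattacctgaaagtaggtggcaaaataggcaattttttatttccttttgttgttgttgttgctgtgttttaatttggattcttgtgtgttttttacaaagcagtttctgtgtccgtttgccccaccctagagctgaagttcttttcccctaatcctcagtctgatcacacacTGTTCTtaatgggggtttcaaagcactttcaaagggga
The hexamers began 108 and 38 bases before the middle and the downstream start sites, and the ETS letters 142 bases before the upstream one. All 250 bases before the middle and the downstream start sites lay inside an annotated transcript, outside exons. Of those before the upstream start site, 0 did. ENST00000377102.1 begins at the downstream start site itself, at 80339659, and ENST00000377104.3 begins 175 bases inside the upstream one. A letter match is a description of the sequence and not a binding site.

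SPRY4 moved the other way. It encodes Sprouty 4, which acts on RAF activation and binds the kinase TESK1. SPRY4 (ENSG00000187678.9) lies on the minus strand of chromosome 5, from 142310427 to 142326455, and the table holds 44 counts for SPRY4-AS1 on the other strand, against 1482 for SPRY4. Whether the counting used strand is not given. At 3 h the dex libraries held 3.84 and 5.05 CPM and the EtOH libraries 8.78 and 6.47 CPM. This was the time at which SPRY4 fell, by 0.75 ± 0.24 on the log2 scale or to 0.593-fold of EtOH (adjusted p = 0.0386, edgeR). At 1 h the values were 5.24 and 5.17 CPM against 6.57 and 7.34 CPM, at log2 -0.42 ± 0.23 (adjusted p = 0.831). At 5 h they were 4.92 and 4.82 CPM against 4.81 and 7.91 CPM, and at 7 h 4.49 and 6.73 CPM against 6.69 and 6.37 CPM. The groups overlapped at 5 and 7 h. At 9 h dex was the higher group, with 5.84 and 6.43 CPM against 4.37 and 4.60 CPM, and at 11 h the lower one, with 6.03 and 7.00 CPM against 7.56 and 7.53 CPM. Neither difference passed (log2 0.46 ± 0.24, adjusted p = 0.236, and log2 -0.21 ± 0.23, adjusted p = 0.736, edgeR). Groups that did not overlap were found for 26.4% of all genes at 9 h, higher with dex, and for 23.6% at 11 h, lower with dex.

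The 2 EtOH libraries of 9 h held the lowest SPRY4 values of the 12 EtOH libraries. The change of the dex effect between time points had an adjusted p of 0.173 (edgeR), and of 0.0894 without EtOH replicate 1 of 5 h. The mean effect over time was log2 -0.26 ± 0.10 (adjusted p = 0.0416), with 18.9% of all genes called lower in that contrast, and it was not called without dex replicate 1 of 7 h or without EtOH replicate 2 of 5 h (log2 -0.21 and -0.19). The 3 h call was lost with DESeq2 (adjusted p = 0.235), without dex replicate 1 (0.281) and without EtOH replicate 1 (0.401), and without EtOH replicate 1 SPRY4 was called lower at 5 h (log2 -0.70, adjusted p = 0.089). ENST00000344120.4 held 80.4% of the SPRY4 counts and was called lower at 3 h (log2 -0.80 ± 0.24, adjusted p = 0.0468, edgeR), where 7.12% of transcripts were called.

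SPRED1 was the member that fell most often. It encodes a membrane protein that recruits neurofibromin to RAS, and its loss in people causes Legius syndrome, a disorder akin to neurofibromatosis type 1. SPRED1 (ENSG00000166068.12) lies on the plus strand of chromosome 15, from 38252326 to 38357249. At 1 h the dex libraries held 43.2 and 34.8 CPM and the EtOH libraries 42.3 and 42.5 CPM, which overlap. At 3 h they held 27.5 and 27.3 CPM against 48.4 and 43.5 CPM, and at 5 h 29.1 and 29.1 CPM against 37.3 and 48.5 CPM. From 3 h on, both dex libraries were below both EtOH libraries at every time point, as were those of 25.1%, 27.7%, 29.8%, 28.7% and 23.6% of all genes at 3, 5, 7, 9 and 11 h. At 7 h they held 34.0 and 37.5 CPM against 47.7 and 48.9 CPM. At 9 h the values were 36.5 and 35.9 CPM against 48.1 and 37.4 CPM, and at 11 h 35.1 and 28.0 CPM against 49.8 and 44.2 CPM. The gap was narrowest at 9 h, when 1 EtOH library stood close to the dex libraries.

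SPRED1 fell by 0.74 ± 0.13 on the log2 scale at 3 h, to 0.598-fold of EtOH (adjusted p = 7.36e-05, edgeR). It fell by 0.57 ± 0.13 at 5 h (adjusted p = 0.00112), by 0.44 ± 0.10 at 7 h (adjusted p = 0.00136) and by 0.57 ± 0.17 at 11 h (adjusted p = 0.0645). At 1 h the log2 fold change was -0.11 ± 0.14 (adjusted p = 0.968) and at 9 h -0.24 ± 0.15 (adjusted p = 0.31). The mean effect was log2 -0.45 ± 0.06 (adjusted p = 4.52e-07), and its change between time points had an adjusted p of 0.189, or of 0.0593 without dex replicate 1 of 11 h and 0.0756 without EtOH replicate 1 of 9 h. With 229 to 591 counts in a library, SPRED1 was measured at greater depth than the Sprouty genes. Single libraries still decided several calls. Without EtOH replicate 2 the adjusted p was 0.137 at 5 h and 0.0111 at 9 h, without dex replicate 1 it was 0.118 at 7 h, and at 11 h it was 0.65 without EtOH replicate 1, 0.283 without EtOH replicate 2 and 0.114 with DESeq2. The 3 h call held without each of the 4 libraries. ENST00000299084.4 carried 94.4% of the counts and was called lower at the same 4 time points as the gene.

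SPRED2, the paralog with the highest level per kb of transcript, did not pass the test at any time. It encodes a second neurofibromin-binding protein. SPRED2 (ENSG00000198369.9) lies on the minus strand of chromosome 2, from 65310851 to 65432637. Its 12 EtOH libraries ran from 33.3 to 44.7 CPM, with a median of 40.4 CPM, and its 12 dex libraries from 29.9 to 48.4 CPM, with a median of 43.4 CPM. The lowest dex library was replicate 2 of 1 h and the highest replicate 1 of 11 h. The 6 log2 fold changes lay between -0.06 ± 0.13 at 5 h and 0.20 ± 0.13 at 9 h, and the mean effect was log2 0.09 ± 0.05 (adjusted p = 0.266, edgeR). Dex libraries were above EtOH libraries at 3, 9 and 11 h, as for 26.6%, 26.4% and 22.3% of all genes, and overlapped them at the other 3 times. The lowest of its 6 unadjusted p-values in edgeR was 0.134, at 9 h, and DESeq2 called it at 0 time points. Of its 7 transcripts 5 were tested and 0 were called by edgeR at any time, with 1 of the 30 unadjusted p-values under 0.05 (ENST00000452315.1 at 11 h, 0.0285).

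SPRED3, which encodes the SPRED protein without a working KIT-binding domain, was near the limit of detection. SPRED3 (ENSG00000188766.12) lies on the plus strand of chromosome 19, from 38388421 to 38399587. It had 0 to 4 counts in a library, 20 counts in the 12 dex libraries together and 24 in the 12 EtOH libraries. A difference was not detectable at this depth. SPRY3, the Sprouty gene outside the 6 members, passed the filter as part of another list and was called at no time, with log2 fold changes between -0.73 ± 0.67 and 1.13 ± 0.56.

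**Figure D2:**
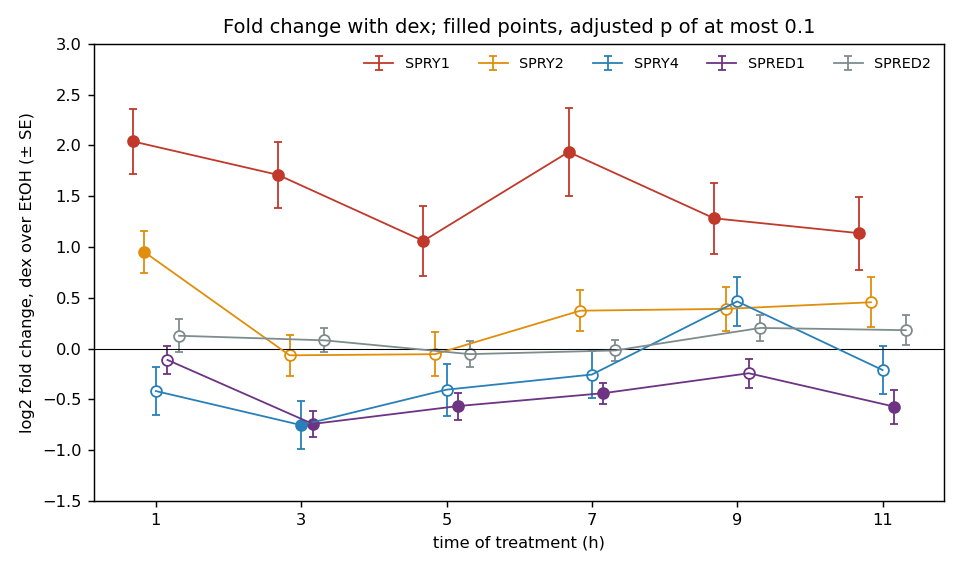
Log2 fold change of dex over EtOH (vertical axis) with its standard error against hours of treatment for the 5 members tested; filled points have an adjusted p of at most 0.1 in edgeR, and points are shifted sideways for clarity. SPRY1 is filled at all 6 time points, between 1.06 and 2.04, SPRED1 is filled below 0 at 3, 5, 7 and 11 h, and SPRED2 is open throughout.

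Time by itself did not move the members past the threshold. Over the 12 EtOH libraries, the test of any difference between time points gave adjusted p-values of 0.308 or more for the 5 members (edgeR), while 3.33% of all genes passed it. The dex effect at 11 h minus that at 5 h was not called for any member either, with 2.91% of genes called.

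Levels of different genes were compared per kb of transcript, as CPM per kb summed over a gene's transcripts. In EtOH the order of the medians was SPRED2 (21.3), SPRED1 (10.1), SPRY2 (3.08), SPRY4 (1.76), SPRY1 (0.815) and SPRED3 (0.168). The ranges over 12 libraries of SPRED2, SPRED1 and SPRY2 did not overlap each other, and SPRY2 was above SPRY4 without overlap. SPRY4 and SPRY1 overlapped in range, as did SPRY1 and SPRED3, although each of the 12 libraries held the 3 in that order. With dex the order was SPRED2 (24.02), SPRED1 (7.38), SPRY2 (3.99), SPRY1 (2.04), SPRY4 (1.38) and SPRED3 (0.0813). SPRY1 stood above SPRY4 in 10 of the 12 dex libraries and in 0 of the 12 EtOH libraries, and SPRY1 overlapped both SPRY2 and SPRY4 in range. Short transcripts weigh heavily in a sum per kb, so each gene's counts were also divided by its longest transcript. This gave lower medians, in EtOH 9.85 for SPRED2, 5.91 for SPRED1, 2.64 for SPRY2, 1.34 for SPRY4 and 0.549 for SPRY1, and with dex 10.6, 4.42, 3.41, 1.05 and 1.64. Within each treatment the genes kept the order given above, including the exchange of SPRY1 and SPRY4 between EtOH and dex.

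**Figure D3:**
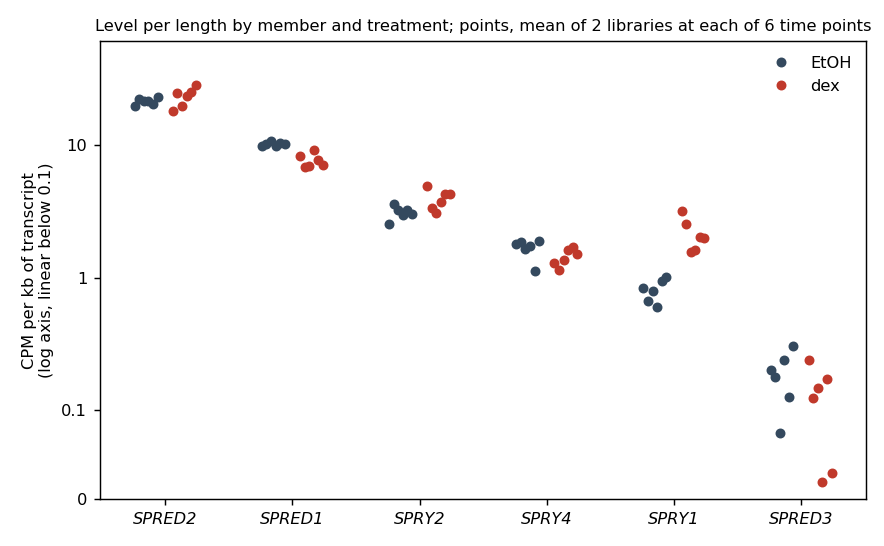
Level per length in CPM per kb of transcript (vertical axis, logarithmic above 0.1 and linear below) for each gene, with 1 point for the mean of 2 libraries at each of 6 time points (dark blue, EtOH; red, dex). SPRED2 lies highest, and SPRY1 lies below SPRY4 in EtOH and above it with dex in medians.

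Whether the members differ in their response was tested on the log2 ratio of 2 members, by an exact permutation test that exchanges treatments within each time point (46656 arrangements, two-sided). Of the 10 pairs of the 5 tested members, 9 had an adjusted p of at most 0.05 and all 10 of at most 0.1. SPRY1 differed from each other member in the same direction at all 6 time points. Its dex effect was above that of SPRED1 by log2 1.89 ± 0.40 (SD over 6 time points), above that of SPRY4 by 1.70 ± 0.65, above that of SPRED2 by 1.37 ± 0.44 and above that of SPRY2 by 1.11 ± 0.41. Each of these had p = 4.29e-05 in the exact test, the smallest that it can give (adjusted p = 7.14e-05). Within the SPRED genes, the effect of SPRED1 was below that of SPRED2 by -0.52 ± 0.23, with the same p and at all 6 time points. Within the Sprouty genes, SPRY2 was above SPRY4 by 0.59 ± 0.45 (exact p = 0.00116, adjusted p = 0.00165), higher at 5 of the 6 time points. The pair that differed least was SPRY4 and SPRED1, at 0.19 ± 0.32 (exact p = 0.0804), in the same direction at 4 of the 6 time points. The direction of all 10 pairs was the same in the libraries of replicate 1 alone and of replicate 2 alone. For the pairs with the smallest p this follows from that p, so it adds no support.

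**Figure D4:**
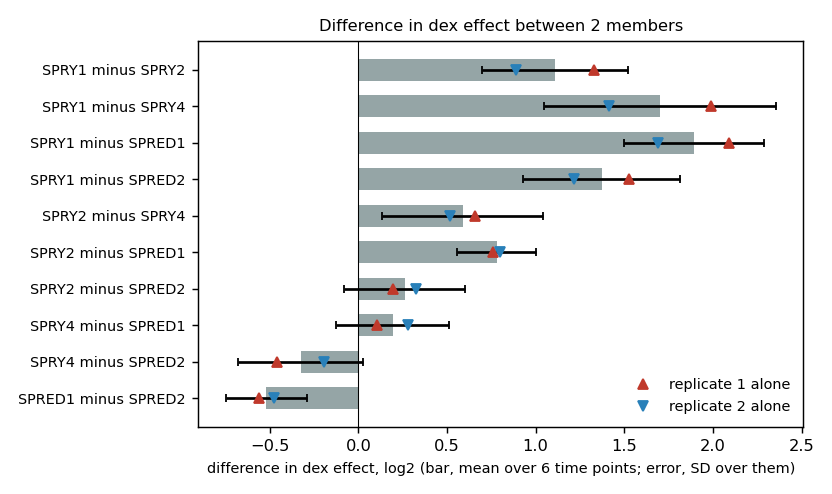
Difference in dex effect between 2 members on the log2 scale (horizontal axis), with bars for the mean over 6 time points, error bars for the SD over them, and triangles for each replicate alone. The 4 pairs with SPRY1 lie above 1.1, and SPRED1 minus SPRED2 lies at -0.52.

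The genes with the most similar pattern to each member were taken by Pearson's r of log2 CPM over the 24 libraries, as a description. All libraries share the contrast of dex and EtOH, so genes that move with dex correlate with each other. For SPRY1 they were RGS2 (r = 0.874), a regulator of G protein signalling, LURAP1L (r = 0.872) and NFKBIA (r = 0.871), the inhibitor of NF-kappaB, with mean dex effects of log2 1.94, 1.19 and 1.67. For SPRED1 they were C1GALT1 (r = 0.926), a glycosyltransferase, CPEB2 (r = 0.922), an RNA-binding protein, and PHLDA1 (r = 0.909), a gene that ERK induces, with mean effects of log2 -0.34, -0.88 and -0.79. The other members had lower maxima. They were PRDM1 (r = 0.713), TSC22D2 (0.702) and NMD3 (0.694) for SPRY2, MPP5 (0.717), TBK1 (0.7) and SUCO (0.686) for SPRY4, and WIPF1 (0.753), AC005544.2 (0.739) and STRBP (0.727) for SPRED2. Among the members themselves, SPRY1 and SPRY2 had r = 0.657, SPRY4 and SPRED1 had r = 0.562 and SPRY1 and SPRED1 had r = -0.64.

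Among genes for proteins that bind or modify Sprouty and SPRED proteins, some were called higher with dex. Of 11 listed partners, all tested, 4 were called higher at each of 3, 5, 7 and 9 h and 2 at 11 h. Among all genes 0.626% were called higher at 1 h and 8.43%, 12.4%, 14.3%, 10.1% and 5.56% from 3 to 11 h. The partners called numbered 2 at 3 h without dex replicate 1 and with DESeq2, 2 at 9 h without dex replicate 1, and 1 to 6 at 11 h when 1 library was left out, at the low end without either EtOH library and at the high end without dex replicate 1. At 1 h 0 partners were called by edgeR and by DESeq2, with 1 at an unadjusted p under 0.05. None was called lower by either tool, while 2 had such a p at 3 h and 1 at each of 7 and 9 h. With edgeR, 0.411% of all genes were called lower at 1 h, and 5.81%, 12.6%, 14.0%, 9.59% and 3.53% from 3 to 11 h. Finding 0 of 11 lower is thus near the background. The median of the list ran from log2 0.11 to 0.24 from 3 h on. NEDD4, a ubiquitin ligase that can mark Sprouty 2 for degradation, rose most, from 252 ± 21.1 CPM in EtOH to 821 ± 36.6 CPM with dex at 9 h (mean ± SD, n = 2). Its log2 fold change was then 1.71 ± 0.12 (adjusted p = 2.34e-07, edgeR). MKNK2, an ERK-activated kinase, rose by log2 1.28 ± 0.11 at 5 h (adjusted p = 2.64e-12) and CAV1, which encodes the membrane scaffold caveolin 1, by 0.87 ± 0.12 at 9 h (adjusted p = 0.000141). CBLB, named after its values were seen, was called higher at 3, 5, 7 and 9 h and reached log2 1.08 at 5 h, while its paralog CBL was called at no time.

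Other feedback inhibitors of receptors and ERK were called in both directions from 3 h on. Of 13 listed genes 12 were tested, with 1 called higher at each of 1, 3 and 5 h and 2 at each later time. Those called lower numbered 0 at 1 h, 2 at 3 h, 3 at 5 h, 2 at both 7 and 9 h and 1 at 11 h. At 1 h 0.626% of all genes were called higher and 0.411% lower, and at 3 h 8.43% and 5.81%. The shares were 10.1% and 9.59% at 9 h, and 5.56% and 3.53% at 11 h. At 7 h the shares of all genes were 14.3% higher and 14.0% lower, so 2 and 2 of 12 are near the background. The 4 genes called at 5 h, where 12.4% of all genes were higher and 12.6% lower, became 2 without either dex library and with DESeq2, and the 3 at 11 h became 2 to 6 when 1 library was left out. ERRFI1, which encodes the EGFR inhibitor MIG6, rose at all 6 time points, by log2 1.76 at 1 h and 2.12 ± 0.12 at 9 h (adjusted p = 4.9e-08 at 9 h, edgeR). ERRFI1 and SPRY1 were thus both called higher at every time point. DUSP5, a nuclear ERK phosphatase, rose at 7 and 9 h (log2 0.75 ± 0.10 at 7 h, adjusted p = 3.61e-07). DUSP4, another ERK phosphatase, fell at 5 time points, most at 3 h, by 1.66 ± 0.11 on the log2 scale (adjusted p = 6.32e-13), the time point at which SPRED1 and SPRY4 had their lowest fold changes.

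Genes known to be switched on by ERK moved both ways. All 15 listed were tested. At 1 h 3 were called lower, and 0 were called higher in edgeR, in DESeq2 or at an unadjusted p under 0.05. Those called higher and lower numbered 3 and 6 at 3 h, 5 and 7 at both 5 and 7 h, 5 and 5 at 9 h, and 3 and 4 at 11 h. The background of genes called lower was 0.411%, 5.81%, 12.6%, 14.0%, 9.59% and 3.53% from 1 to 11 h. That of genes called higher was 0.626%, 8.43%, 12.4%, 14.3%, 10.1% and 5.56%. IER3, an immediate early gene, fell at all 6 time points, by 1.79 ± 0.19 on the log2 scale at 3 h (adjusted p = 3.52e-08, edgeR). ETV1, an ETS factor, fell by 1.46 ± 0.24 at 7 h (adjusted p = 5.15e-06) and FOSL1, an AP-1 subunit, by 1.24 ± 0.25 at 5 h (adjusted p = 0.000134). FOS, another AP-1 subunit, rose by log2 1.19 ± 0.21 at 7 h (adjusted p = 3.4e-05), HMGA2, a chromatin protein, by 0.88 ± 0.13 at 9 h (adjusted p = 0.000464) and CCND1, which encodes cyclin D1, by 0.64 ± 0.13 at 11 h (adjusted p = 0.0084). The CCND1 call was lost without EtOH replicate 1 (adjusted p = 0.199, edgeR) and without EtOH replicate 2 (0.307). Of the list, the 3 genes called at 1 h became 1 without EtOH replicate 2, the 10 at 9 h became 6 and 5 without dex replicate 1 and 2, and the 7 at 11 h became 2 and 3 without EtOH replicate 1 and 2. The list therefore did not move in 1 direction, and its median lay between log2 -0.49 at 5 h and 0.02 at 11 h.

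**Figure D5:**
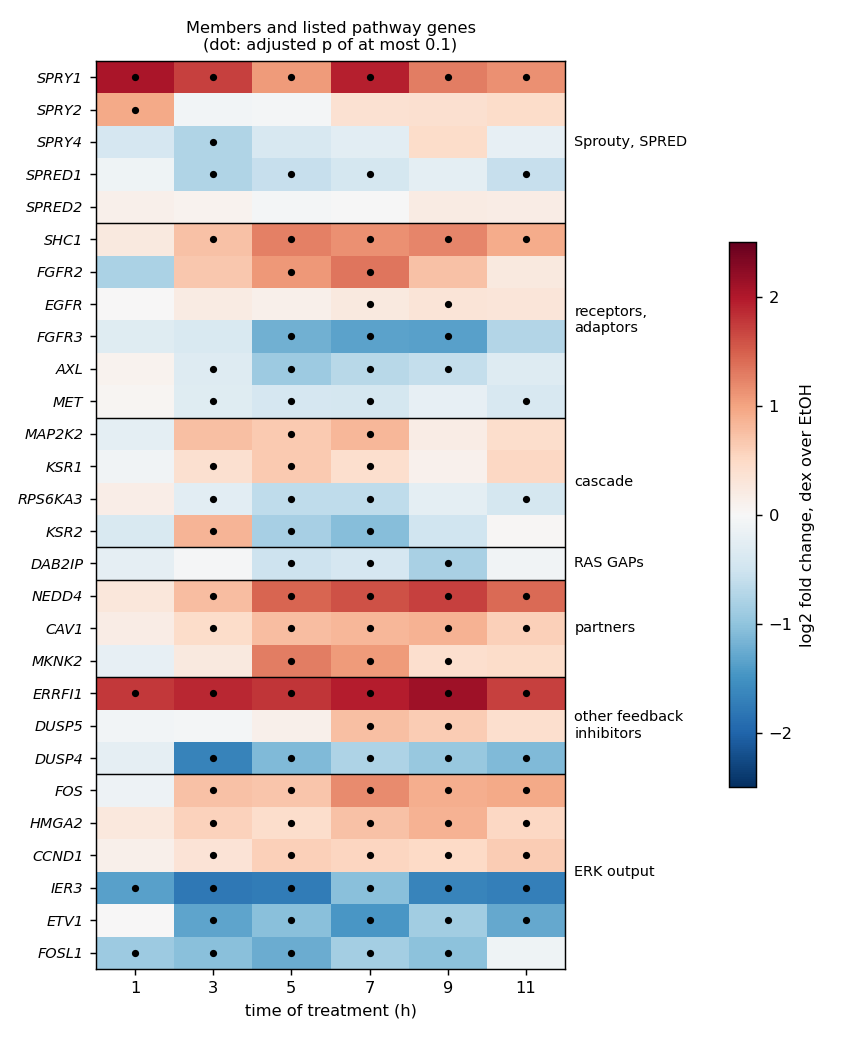
Log2 fold change of dex over EtOH (colour, red higher with dex and blue lower) at 6 time points for the 5 tested members and the named genes of 6 lists, with a dot where the adjusted p in edgeR is at most 0.1. SPRY1 and ERRFI1 are red with a dot at all 6 time points, and IER3 is blue with a dot at all 6.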

How the data were processed

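A549 cells were treated with dex or EtOH and poly-A RNA was sequenced in 24 libraries. The authors mapped reads to GENCODE transcripts (hg19 in the labels) with Bowtie and counted them with samtools, so the deposited values are raw counts per transcript. Reads shared between transcripts can be split arbitrarily, so counts were summed per gene. Transcripts were joined to GENCODE 29 genes on GRCh38 by identifier without version (110262 transcripts, 94.076% of counts). Coordinates come from that annotation, not from the authors' build. Sequences come from RefSeq.

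Gene counts were tested with edgeR 4.0.16 (quasi-likelihood, robust, TMM, filterByExpr, R 4.3.3) at each time point by itself, 2 dex and 2 EtOH libraries, and p-values were adjusted over 15337 genes by Benjamini-Hochberg. Standard errors are the log2 fold change over the square root of F. Mean effects and changes over time used 1 fit of 24 libraries. Pairs of members used log2 CPM with a prior count of 2 (scipy 1.17.1). P-values measure the spread between libraries, since separate cultures are not stated. The script was tested on simulated data.

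The members and gene lists were chosen with earlier results of these data known. Named list genes were the 3 per direction with the largest mean change among those called at 2 or more consecutive time points, and similar genes the 3 with the highest r. Pairing by replicate number was checked by correlating the deviations of dex and EtOH libraries, with 0.1 set to mark pairing. The correlation was 0.157 at 1 h and 0.111 at 9 h, past that mark. It was between -0.068 and 0.0359 at the other times. The paper calls the vehicle control paired, and the main tests did not use a pairing. Alternatives were DESeq2 1.42.0, its size factors, other filters, 1 fit, a replicate block, a threshold of 0.05, 1 transcript per gene, a prior count of 0.5, the longest transcript and leaving out each library.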

Additional observations from a re-analysis of the deposited data

Results flagged for a closer look

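No member was marked for a closer look. Of the 23 named genes of the 6 pathway lists, 14 had a dex effect that differed between the 6 time points in edgeR's fit of 24 libraries, a test that 15.4% of all genes passed. The named genes were chosen by their calls and mean changes in these same data, so their count cannot be set against that share. The known glucocorticoid targets were left out here. Among the partners the adjusted p was 1.08e-07 for NEDD4, 0.000104 for MKNK2 and 0.00185 for CAV1. NEDD4 went from log2 0.27 at 1 h to 1.71 at 9 h, while MKNK2 peaked at 5 h with 1.28. Among the feedback inhibitors it was 3.95e-07 for DUSP4, which was lowest at 3 h (log2 -1.66), and 0.00202 for DUSP5, which was highest at 7 h (log2 0.75). Among ERK output genes it was 0.0277 for ETV1, 0.0302 for CCND1 and 0.095 for FOSL1. Among receptors and adaptors it was 4.3e-06 for SHC1, 0.000167 for AXL and 0.0446 for MET. In the cascade it was 0.00145 for KSR2, 0.00339 for RPS6KA3 and 0.0548 for KSR1. KSR2 was higher with dex at 3 h (log2 0.84) and lower at 7 h (log2 -1.07).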

How the results depend on the processing

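With 2 libraries per group, single libraries decided several calls, and SPRY1 and SPRED3 rest on few counts. The lists describe counts of calls and were not tested as sets. The unknown placing of reads shared between transcripts limits the transcript values.

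The number of members called, 2, 3, 2, 2, 1 and 2 from 1 to 11 h, was 1, 2, 1, 2, 1 and 0 with DESeq2. With at least 10 counts in every library SPRY1 was not tested, and the number was 1, 2, 1, 1, 0 and 1. It was 0 at 11 h at a threshold of 0.05, where the adjusted p of SPRY1 and SPRED1 was 0.0924 and 0.0645. With 1 transcript per gene it was 1 at 1 h, 0 at 9 h and 1 at 11 h, and SPRED2 had log2 -0.30 at 1 h and 0.91 at 7 h, uncalled. SPRY2 had an adjusted p of 0.0853 for a change between time points with no filter. The 11 h minus 5 h effect of SPRED1 turned from -0.01 to 0.0032 with DESeq2's size factors and to 0.035 with no filter. The cause of these changes was not tested, other than for the filter.

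Leaving out 1 library gave 1 to 2 members called at 1 h, 1 to 2 at 5 h, 1 to 3 at 7 h, 0 to 2 at 9 h and 0 to 3 at 11 h. A group left with 1 library was assumed to vary like the rest. The log2 fold changes that changed sign, all uncalled with every library in the fit, ranged from -0.285 to 0.0251 for SPRED1 at 1 h. For SPRED2 the ranges were -0.205 to 0.367 at 1 h, -0.232 to 0.101 at 5 h and -0.0781 to 0.041 at 7 h. For SPRY2 they were -0.218 to 0.0814 at 3 h and -0.175 to 0.0907 at 5 h, and for SPRY4 -0.70 to 0.0173 at 5 h and -0.539 to 0.0435 at 7 h. The 11 h minus 5 h effect ranged from -0.25 to 0.45 for SPRY1, from -0.23 to 0.49 for SPRY4 and from -0.21 to 0.17 for SPRED1. The adjusted p for a change between time points ranged from 0.067 to 0.245 for SPRY2, from 0.0894 to 0.431 for SPRY4 and from 0.0593 to 0.395 for SPRED1. The mean effect ranged from -0.31 to -0.19 for SPRY4 and from 0.031 to 0.126 for SPRED2, which was called without dex replicate 2 of 1 h.

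With the replicate number as a block, all 50 member values kept their direction and call. The count of genes called went from 159 to 579 at 1 h and from 3021 to 4345 at 9 h. The paired numbers correlated between -0.07 and 0.16. Of all genes, DESeq2 called 1208, 2348, 2464 and 1831 at 3, 5, 7 and 9 h, against 2184, 3834, 4342 and 3021. No filter called 250 at 1 h, and 1 fit of 24 libraries 2478 at 11 h against 1394. Leaving out 1 library gave 88 to 703 genes at 1 h, 1293 to 2441 at 3 h, 2225 to 5047 at 7 h, 1436 to 5304 at 9 h and 711 to 4940 at 11 h.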

Other observations

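The growth factor receptors and adaptors upstream of the Sprouty proteins were called in both directions. Of 23 listed genes 20 were tested, and 0 were called at 1 h by edgeR and by DESeq2, with 1 at an unadjusted p under 0.05. As edgeR called 1.04% of all genes at 1 h, 0 of 20 is near the background. Those called higher and lower numbered 3 and 2 at 3 h (8.43% and 5.81% of all genes) and 3 and 4 at 7 h (14.3% and 14.0%). They numbered 3 and 4 at 9 h (10.1% and 9.59%) and 1 and 2 at 11 h (5.56% and 3.53%). At 5 h 3 were called higher and 5 lower, where 12.4% and 12.6% of all genes were, and the total of 8 became 4 without either EtOH library and with DESeq2. SHC1, an adaptor that links receptors to RAS, rose by log2 1.25 ± 0.10 at 5 h, from 175 ± 5.12 to 417 ± 17.9 CPM (adjusted p = 1.7e-13, edgeR). FGFR2 rose by log2 1.35 ± 0.49 at 7 h (adjusted p = 0.0403), but the call was lost without dex replicate 1 (0.293), dex replicate 2 (0.21) or EtOH replicate 2 (0.313) and with DESeq2 (0.282), and the log2 value ran from 0.80 without EtOH replicate 2 to 2.23 without EtOH replicate 1. EGFR rose by 0.32 ± 0.11 at 9 h (adjusted p = 0.0641), a call lost without dex replicate 1 (0.492) and dex replicate 2 (0.446). FGFR3 fell by 1.36 ± 0.27 on the log2 scale at 9 h (adjusted p = 0.00293, edgeR). Leaving out 1 library gave FGFR3 log2 values from -2.03, without dex replicate 2, to -1.05. AXL fell by 0.90 ± 0.10 at 5 h (adjusted p = 2.67e-09, edgeR) and MET by 0.45 ± 0.07 at 7 h (adjusted p = 8.74e-06).

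Of the 18 genes of the RAS to ERK cascade, all tested, at most 5 were called higher (at 7 h) and at most 2 lower (at 5 and 7 h). At 7 h 14.3% of all genes were called higher and 14.0% lower, and the 7 genes called became 4 without dex replicate 1 or with DESeq2 and 3 without dex replicate 2. MAP2K2, which encodes MEK2, rose by log2 0.83 ± 0.17 at 7 h (adjusted p = 0.0278, edgeR) and the scaffold gene KSR1 by 0.66 ± 0.13 at 5 h (adjusted p = 0.000101). RPS6KA3, which encodes the kinase RSK2, fell by 0.63 ± 0.08 on the log2 scale at 7 h (adjusted p = 1.38e-07) and KSR2 by 1.07 ± 0.26 at 7 h (adjusted p = 0.00149). Of the 8 RAS GTPase-activating proteins tested, 0 were called higher at any time by edgeR, by DESeq2 or at an unadjusted p under 0.05. Among all genes edgeR called 0.626% higher at 1 h and at most 14.3%, at 7 h, so 0 of 8 is near the background. Called lower by edgeR were 1, 2 and 1 of the 8 at 5, 7 and 9 h, where 12.6%, 14.0% and 9.59% of all genes were. DESeq2 called 0 of them lower at 5 and 7 h and 1 at 9 h. DAB2IP was called lower by edgeR at 5, 7 and 9 h, by 0.80 ± 0.16 on the log2 scale at 9 h (adjusted p = 0.00283). NF1, which encodes neurofibromin, the partner of the SPRED proteins, was called at no time, with log2 fold changes between -0.34 and 0.04.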
